A study of Mus musculus with 4 samples.

Results

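Annexins are cytosolic proteins that bind negatively charged phospholipids when calcium rises. They are known for organising membranes, for exocytosis and for resealing damaged plasma membrane, where several members are recruited to the wound. Anxa2 forms a complex with the small EF-hand protein S100a10 that can bind plasminogen and its activator at the cell surface, and Anxa1 can bind S100a11. Anxa1 is also known as a secreted ligand of formyl peptide receptors that limits inflammation, and Anxa5 is best known for binding phosphatidylserine. In the injured cord, annexins are of interest because reactive astrocytes, immune cells and fibroblasts all meet damaged membranes and raised calcium.

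The annexin genes Anxa1 to Anxa7 were taken by gene symbol from the gene expression features of the 2 single-cell matrices. All 7 were found once among 32287 gene features, which held 12 annexin genes in all. The data came from the spinal cord of Cx30-Tom mice, in which tamoxifen-induced recombination from the Cx30 (connexin 30) locus switches on tdTomato, a label meant for astrocytes. Mice of 8 to 12 weeks in both conditions had received a pool of enhancer viruses in the blood, so the uninjured animals also carried the viruses. The injured condition had a spinal cord contusion and was sampled at 3 days, in segments of 5 mm around the lesion, and the uninjured condition was sampled at the same level. Cells positive for tdTomato were sorted, and the labels give 1 to 2 animals of each sex pooled per condition. Each condition gave 1 gene expression library, with a barcode library from the same cells, so the conditions could not be tested against each other and no p-value is given.

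Of 919 injured and 4159 uninjured cell barcodes, 879 and 4159 passed the study's limits on gene UMIs (unique molecular identifiers, 1 per captured RNA molecule). The kept cells held 8499672 and 15543460 gene UMIs, with medians of 6816 and 3343 per cell. The libraries shared 7 cell barcodes. The labels give animals of both sexes, but cells scored by Xist and Y-linked genes were 250 female and 315 male in the injured library against 2 female and 2770 male in the uninjured one. Condition and sex were therefore partly mixed, and values in male cells are given beside the main results. Clustering without the annexin genes gave 12 clusters, of which 10 could be named from marker genes. These held 391 injured and 3081 uninjured astrocyte-like cells, or 44.5% and 74.1% of the kept cells, so the label of a tdTomato-positive sort did not mean a pure astrocyte sample. The other classes were microglia-like (129 injured and 32 uninjured cells), ependymal-like (135 and 31), endothelial-like (68 and 26), fibroblast-like (59 and 97) and oligodendrocyte precursor (OPC)-like cells (45 and 16). Another 52 injured and 876 uninjured cells lay in 2 clusters that had astrocyte markers but neuron genes such as Nefl and Snap25 among their leading genes, and these stayed unnamed.

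Levels are given as CPM, the UMIs of a gene summed over the cells of a class per 1000000 gene UMIs of that class. Because the library captures the 3′ end of each RNA, CPM here follow molecules and not transcript length. Brackets after a level hold the exact 95% Poisson interval, and brackets after a ratio hold the exact conditional binomial 95% interval. All intervals cover counting error only and say nothing of differences between animals or libraries.

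The genes lie on 7 different chromosomes of GRCm38, the assembly named mm10 in the submitters' notes. Anxa1 spans 20373428 to 20390944 on chromosome 19 (minus strand), Anxa2 spans 69453620 to 69491795 on chromosome 9 (plus), and Anxa3 spans 96793339 to 96845966 on chromosome 5 (plus). Anxa4 lies at 86736840 to 86793584 on chromosome 6, Anxa5 at 36448923 to 36475894 on chromosome 3, Anxa6 at 54979108 to 55033445 on chromosome 11 and Anxa7 at 20455260 to 20480133 on chromosome 14, all on the minus strand. All 7 are annotated as protein coding. The transcript used here has 13 exons in each gene except Anxa6, which has 26. Anxa3 shares its strand with the overlapping entry Gm42603. A read in the overlap may not be assigned uniquely if the counting reference held this entry, which was not checked. Anxa2 overlaps the antisense gene Gm16144 on the other strand and the microRNA gene Mir3109 on its own, and Anxa5 overlaps the microRNA gene Mir7009. Anxa1 and Anxa4 overlap non-coding genes on the opposite strand.

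Promoter windows, from 250 bases before to 50 bases after the start site, were found for 5 of the 7 genes in RefSeq (GRCm38.p6). Those of Anxa2, Anxa1 and Anxa5 are printed, because in astrocyte-like cells Anxa2 was near 0 without injury and clearly present with it, Anxa1 was near 0 in both conditions, and Anxa5 was present in both. The windows lie at chr9:69453433-69453732 (plus strand) for Anxa2, chr19:20390622-20390921 (minus) for Anxa1 and chr3:36475838-36476137 (minus) for Anxa5, each read 5′ to 3′ on the strand of the gene. Capitals mark matches to the AP-1 motif TGANTCA on either strand.
Anxa2: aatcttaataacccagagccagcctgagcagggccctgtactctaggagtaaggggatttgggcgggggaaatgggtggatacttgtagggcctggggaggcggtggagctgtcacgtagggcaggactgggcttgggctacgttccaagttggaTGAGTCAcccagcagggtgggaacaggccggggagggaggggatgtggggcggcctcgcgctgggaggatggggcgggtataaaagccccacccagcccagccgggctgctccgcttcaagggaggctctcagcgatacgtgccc
Anxa1: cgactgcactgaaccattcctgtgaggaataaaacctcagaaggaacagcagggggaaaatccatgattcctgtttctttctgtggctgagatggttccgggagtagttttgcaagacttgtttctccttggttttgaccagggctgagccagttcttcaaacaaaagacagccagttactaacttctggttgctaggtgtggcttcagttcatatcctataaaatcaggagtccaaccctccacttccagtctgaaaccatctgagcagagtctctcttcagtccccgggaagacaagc
Anxa5: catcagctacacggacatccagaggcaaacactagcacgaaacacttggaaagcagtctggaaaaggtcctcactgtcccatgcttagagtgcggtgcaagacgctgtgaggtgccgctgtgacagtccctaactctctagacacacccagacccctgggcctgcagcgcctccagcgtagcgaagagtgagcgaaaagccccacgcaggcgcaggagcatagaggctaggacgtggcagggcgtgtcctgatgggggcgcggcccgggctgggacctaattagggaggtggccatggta
AP-1 factors bind this motif and are known as injury-induced transcription factors. Anxa3 and Anxa6 had no window and could not be searched for motifs. A single match was found among the 7 windows of the 5 genes (Anxa4 and Anxa7 have 2 start sites each). It lies 95 bases before the start of Anxa2. Of all 32851 promoter windows, 7.81% held at least 1 such match. The STAT motif TTCNNNGAA (both strands, in 8.30% of windows) and the cyclic AMP response element TGACGTCA (both strands, in 1.79%) had no match in the windows of these genes. The letters TATAAA, searched on the strand of the gene and found in 8.32% of windows, start 32 bases before the Anxa1 start site and 17 bases before that of Anxa2. The GC content was 63.7% in the Anxa2 window, 60.3% in that of Anxa5 and 47.3% in that of Anxa1. A match describes the sequence only, and no binding was measured here.

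The main question was how annexin RNA differed in astrocyte-like cells between injured and uninjured cord. The summed annexin level was 595 CPM (563 to 628) in injured and 210 CPM (202 to 219) in uninjured astrocyte-like cells, a ratio of 2.83 (2.64 to 3.03). The 7 genes did not contribute alike. Anxa2 and Anxa3 had almost no UMIs without injury and clear levels with it, Anxa7 was about 3-fold higher, Anxa5 and Anxa6 were less than 2-fold higher from a level already present without injury, Anxa4 was low in both, and Anxa1 was not measurable in either. Log2 ratios below are of CPM with 1 CPM added on both sides.

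Anxa2, the partner of S100a10, had 318 UMIs in 391 injured and 31 UMIs in 3081 uninjured astrocyte-like cells. Its level was 147 CPM (131 to 164) against 2.78 CPM (1.89 to 3.94), a log2 ratio of 5.29 and a ratio of 52.9 (36.6 to 79.2). The injured UMIs were spread over 115 cells, with 29 UMIs in the richest cell, while 7 of the 31 uninjured UMIs came from 1 cell. Anxa3 had 143 UMIs against 1, or 66.1 CPM (55.7 to 77.9) against 0.0896 CPM. With 1 UMI in the denominator its ratio of 738 is poorly bounded, from 130 to 29347, and the log2 ratio with 1 CPM added was 5.94. Its UMIs came from 50 injured cells, with 15 in the richest. Anxa2 and Anxa3 therefore differed far beyond counting error, and neither rested on a single injured cell.

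Anxa7, also called synexin and known for membrane fusion in exocytosis, had 45.3 CPM (36.8 to 55.2) in injured and 14.7 CPM (12.5 to 17.1) in uninjured astrocyte-like cells. This is a log2 ratio of 1.56 and a ratio of 3.08 (2.38 to 3.98). Anxa4 rested on 17 UMIs against 22, or 7.86 CPM (4.58 to 12.6) against 1.97 CPM (1.24 to 2.98), a ratio of 3.99 (1.99 to 7.86).

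Anxa5 had 245 CPM (224 to 266) in injured and 142 CPM (135 to 149) in uninjured astrocyte-like cells, a log2 ratio of 0.78 and a ratio of 1.72 (1.56 to 1.90). Anxa6, which binds membranes through its extended set of repeats, had 83.7 CPM (71.9 to 96.8) against 48.6 CPM (44.6 to 52.9), a log2 ratio of 0.77 and a ratio of 1.72 (1.45 to 2.04). Both intervals lay above 1 and both log2 ratios stayed under 1. Anxa1 had 1 UMI in injured and none in uninjured astrocyte-like cells. None of the 3081 uninjured cells had an Anxa1 UMI, which on a floor of 3 counts allows a share of cells with a UMI of up to 0.0974% (the exact 95% interval reaches 0.1197%), so no direction can be given for this gene.

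In all, 4 of the 7 annexins were at least 2-fold higher (Anxa2, Anxa3, Anxa4 and Anxa7), none was at least 2-fold lower, and 6 had intervals above 1. Of the 10050 genes that reached 10 CPM in either condition, 15.2% were at least 2-fold higher and 8.01% at least 2-fold lower, with a median log2 ratio of 0.04. Of the 7 annexins, 5 met that level, while Anxa1 and Anxa4 did not. Anxa2 and Anxa3 met it through the injured cells alone, so their passing this filter already required a difference. The median log2 ratio of all 7 was 1.56. Among the 10050 genes, 99.8% had a lower log2 ratio than Anxa3 and 99.7% a lower one than Anxa2, against 92.8% for Anxa7, 78.9% for Anxa5 and 78.6% for Anxa6.

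**Figure D1:**
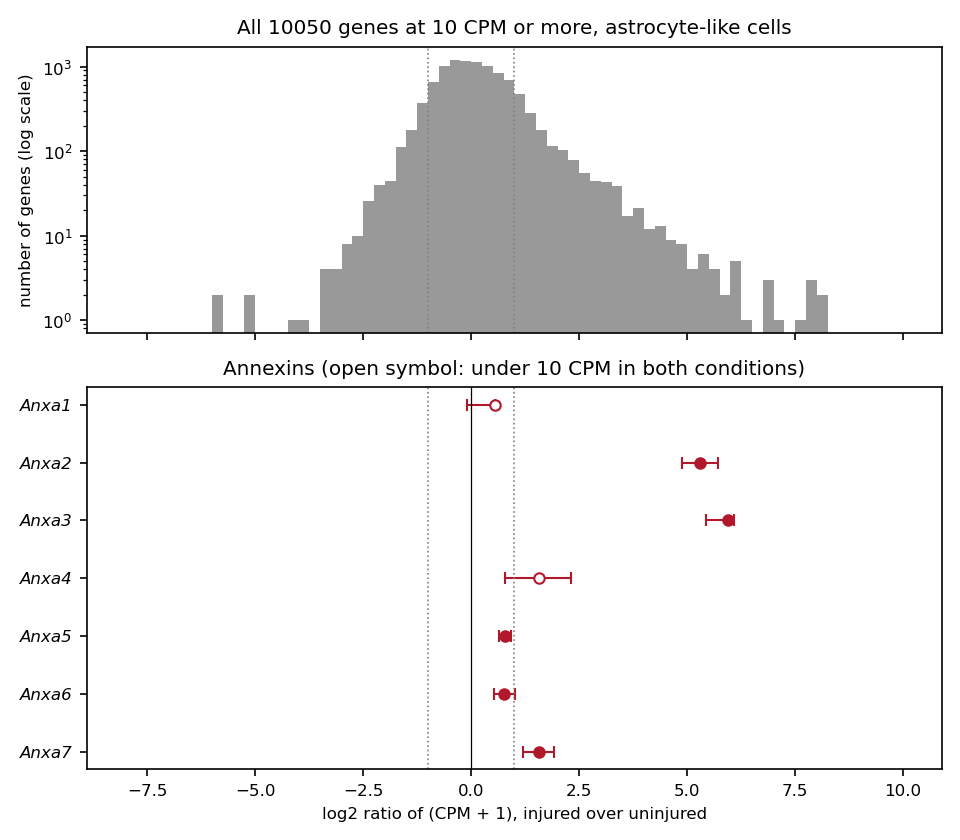
Upper panel, number of genes (log scale) by log2 ratio of CPM + 1 between injured and uninjured astrocyte-like cells for the 10050 genes that reached 10 CPM in either condition. Lower panel, the 7 annexins on the same axis with exact 95% intervals (counting error only), open symbols for genes under 10 CPM in both conditions and dotted lines at 2-fold. Anxa2 and Anxa3 lie at 5.29 and 5.94, in the right tail, while Anxa5 and Anxa6 lie between 0 and the 2-fold line.

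The same contrast in cells scored male, which removes the difference in sex between the libraries, kept the directions of Anxa2 to Anxa7. In 123 injured and 2082 uninjured male astrocyte-like cells the log2 ratio was 4.88 for Anxa2, 4.80 for Anxa3 and 1.05 for Anxa6. Anxa4, at 0.99, was under 2-fold in these cells, and Anxa6 was above it. The summed level had a log2 ratio of 1.25 against 1.50 in all cells. The injured cells scored female and male differed for some members. Anxa3 had 75.9 CPM in 75 female and 30.1 CPM in 123 male injured astrocyte-like cells, a ratio of 2.53 (1.56 to 4.17). Anxa2 had 158 and 107 CPM, a ratio of 1.47 (1.11 to 1.96), and Anxa6 went the other way, with 62.3 and 102 CPM and a ratio of 0.611 (0.413 to 0.889). With 1 to 2 animals per sex pooled, sex and single animals cannot be told apart in these values.

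Shares of cells with a UMI followed the levels. Anxa2 had a UMI in 29.4% of injured astrocyte-like cells (24.9 to 34.2%) and in 0.714% of uninjured ones (0.448 to 1.08%). The injured cells were slightly deeper, with medians of 3747 and 3209 gene UMIs. With every cell thinned to 1000 gene UMIs, leaving out 31 injured and 72 uninjured cells, the shares were 9.72% (35 of 360 cells, 6.87 to 13.3%) and 0.166% (5 of 3009, 0.0540 to 0.387%). In the same thinned injured library, the OPC-like class, which had the lowest Anxa2 level and an unthinned median of 21658 gene UMIs, showed Anxa2 in 2.22% of its 45 cells (0.0562 to 11.8%). At this depth Anxa3 had a UMI in 6.67% of injured astrocyte-like cells (4.32 to 9.76%) and in 0 of 3009 uninjured ones. Anxa5 had one in 19.7% (15.7 to 24.2%) and 11.8% (10.7 to 13.0%), and Anxa7 in 4.44% (2.56 to 7.12%) and 1.63% (1.21 to 2.15%). The thinned intervals of Anxa6, at 7.50% (5.00 to 10.7%) and 4.79% (4.05 to 5.61%), overlapped.

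Different clusters held the astrocyte-like cells of the 2 conditions, and the comparison above is in large part a comparison of these clusters. Most injured cells (81.3%) lay in cluster 3, which has Gfap and Lcn2 among its leading genes and took in 0.260% of the uninjured cells. Of the uninjured cells, 33.3% lay in cluster 4, 30.5% in cluster 7, 26.7% in cluster 11 and 9.25% in cluster 6. Cluster 4 was the shallowest astrocyte-like cluster, with a median of 2055 gene UMIs. Mitochondrial genes such as mt-Nd6 and mt-Nd2 were among its leading genes, and the part of cell quality in its annexin values was not tested. In the 318 injured cells of cluster 3, Anxa2 had 160 CPM, Anxa3 73.1 CPM, Anxa5 266 CPM, Anxa6 87.0 CPM and Anxa7 48.4 CPM. Injured cells were also found in clusters 4 (47 cells) and 7 (21 cells), beside 1026 and 940 uninjured cells. There the summed annexin level did not differ between conditions beyond counting error, with ratios of 0.678 (0.322 to 1.26) in cluster 4 and 0.992 (0.610 to 1.53) in cluster 7. Anxa5, higher with injury over all astrocyte-like cells, was at a lower level in the injured cells of both clusters, with 30.8 against 85.5 CPM in cluster 4 (ratio 0.360, 0.0737 to 1.07) and 68.1 against 138 CPM in cluster 7 (ratio 0.494, 0.198 to 1.02). These values rest on 3 and 7 injured UMIs and both intervals include 1. Anxa2 had 5 UMIs in the 21 injured and 3 in the 940 uninjured cells of cluster 7, a ratio of 62.6 (12.2 to 403), and 2 against 7 UMIs in cluster 4, a ratio of 7.34 (0.744 to 38.5). Anxa3 had 1 UMI in the 47 injured cells of cluster 4 and none in those of cluster 7.

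Anxa5 varied among the uninjured clusters while Anxa6 and Anxa7 varied little. Anxa5 had 75.5 CPM in cluster 6, 85.5 CPM in cluster 4, 138 CPM in cluster 7 and 197 CPM in cluster 11, whose leading genes include Hsd11b1, Igfbp2 and Chil1. The highest of these values, in cluster 11, was still under the 266 CPM of injured cluster 3. The 758 uninjured cells of cluster 10, which had astrocyte markers but stayed unnamed, had 205 CPM of Anxa5. Anxa2 was at most 2.85 CPM and Anxa3 at most 1 UMI in any of these uninjured groups.

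**Figure D2:**
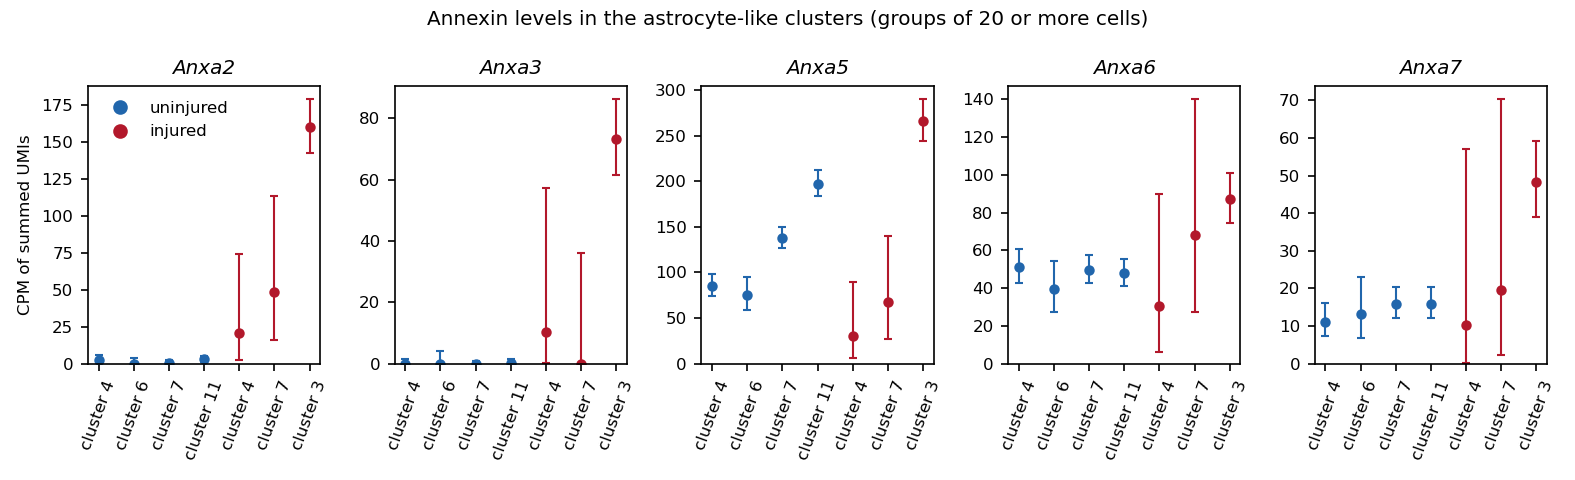
CPM of summed UMIs of 5 annexins (vertical axes from 0) in the astrocyte-like clusters, for groups of at least 20 cells, uninjured in blue and injured in red, with exact 95% Poisson intervals. Anxa2 and Anxa3 were near 0 in each uninjured group and at 160 and 73.1 CPM in injured cluster 3, and Anxa5 ran from 75.5 to 197 CPM among uninjured clusters.

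Within the injured astrocyte-like cells, 171 cells had a UMI of Lcn2 or Timp1, a pair of genes of the reactive state, and 220 did not. Anxa3 had 104 CPM in the former and 12.3 CPM in the latter, a ratio of 8.49 (4.59 to 17.4). Anxa2 had 192 and 83.7 CPM (ratio 2.29, 1.76 to 3.01) and Anxa5 had 299.9 and 166 CPM (ratio 1.80, 1.49 to 2.20). For Anxa6 the interval of the ratio, 0.882 to 1.65, included 1. The cells with these UMIs were also deeper, with medians of 4813 and 2830 gene UMIs, and the part of depth in these ratios was not tested. The 133 cells with a UMI of the M5 enhancer barcode had 176 CPM of Anxa2 against 114 CPM in the other 258 (ratio 1.55, 1.22 to 1.96), while the intervals of Anxa3, Anxa5, Anxa6 and Anxa7 for this division included 1. Their medians were 6816 and 2947 gene UMIs.

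Each annexin had its own order of cell classes. In the injured library Anxa1 had 113 CPM in fibroblast-like, 56.6 CPM in microglia-like, 38.9 CPM in endothelial-like and 10.0 CPM in ependymal-like cells, and 1 UMI each in OPC-like and astrocyte-like cells. Neighbours in this order differed beyond counting error except microglia-like from endothelial-like and OPC-like from astrocyte-like cells. Anxa2 had 602 CPM in fibroblast-like and 550 CPM in endothelial-like cells, which did not differ beyond counting error. It had 440 CPM in ependymal-like, 180 CPM in microglia-like, 147 CPM in astrocyte-like and 36.4 CPM in OPC-like cells, each below the one before it. Anxa3 had 473 CPM in endothelial-like and 315 CPM in microglia-like cells, then 80.1 CPM in fibroblast-like and 66.1 CPM in astrocyte-like cells, which did not differ beyond counting error. It had 7.08 CPM in ependymal-like cells and no UMI in 45 OPC-like cells.

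Anxa4 was highest in microglia-like (74.5 CPM) and endothelial-like cells (53.7 CPM), followed by fibroblast-like (25.9 CPM) and ependymal-like cells (16.5 CPM). Its levels in astrocyte-like and OPC-like cells were 7.86 and 0.957 CPM. Anxa5 reached 533 CPM in fibroblast-like cells and 493 CPM in ependymal-like ones, then 368 CPM in endothelial-like and 328 CPM in microglia-like cells, and the members of each pair did not differ beyond counting error. Astrocyte-like cells followed with 245 CPM and OPC-like cells with 20.1 CPM. Anxa7 stood out in endothelial-like cells, with 132 CPM, against 40.7 to 53.4 CPM in microglia-like, astrocyte-like, fibroblast-like and ependymal-like cells and 14.4 CPM in OPC-like cells. The 4 erythroid markers summed to 5964 CPM in these injured endothelial-like cells, and their part in the annexin levels of this class was not tested.

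Anxa6 had another order. Its highest levels were in injured astrocyte-like (83.7 CPM), OPC-like (76.5 CPM), fibroblast-like (69.1 CPM) and ependymal-like cells (60.2 CPM). Neighbours among these classes did not differ beyond counting error, but astrocyte-like cells were above ependymal-like ones, with a ratio of 1.39 (1.08 to 1.79). Endothelial-like (32.2 CPM) and microglia-like cells (29.1 CPM) had less Anxa6. It was also the annexin with most UMIs in uninjured OPC-like cells, with 16 UMIs in 16 cells, while Anxa7 had 1 UMI and the other 5 annexins had none there.

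**Figure D3:**
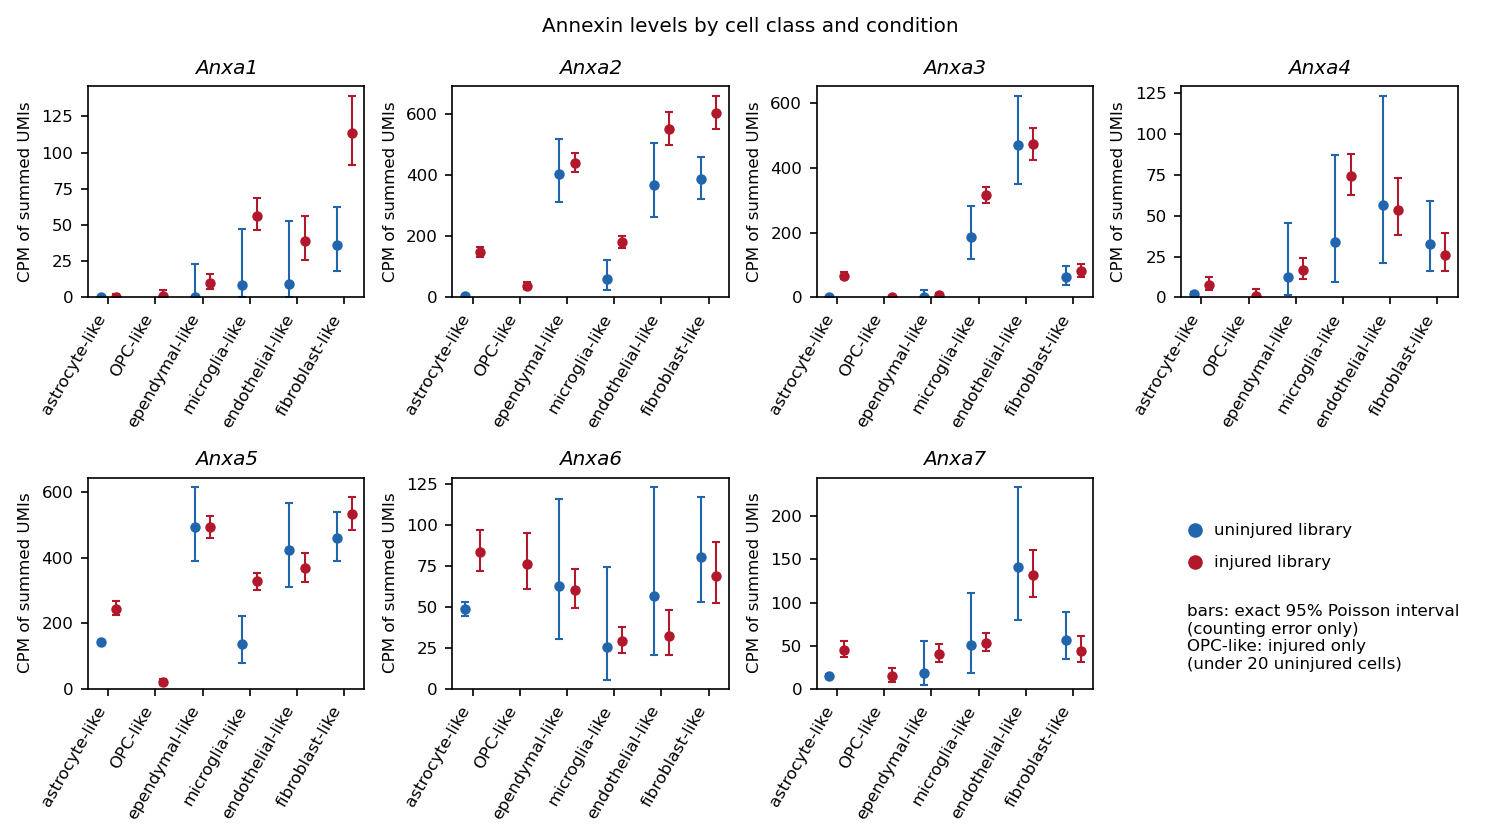
CPM of summed UMIs (vertical axes from 0, a scale for each gene) of the 7 annexins in 6 cell classes, uninjured in blue and injured in red, with exact 95% Poisson intervals for counting error. In astrocyte-like cells Anxa2 and Anxa3 are near 0 without injury and at 147 and 66.1 CPM with it, and uninjured classes other than astrocyte-like have wide intervals because they hold 97 cells or fewer.

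Outside the astrocyte-like cells, the conditions differed less for most annexins. In microglia-like cells, whose marker list is shared with macrophages, the summed level was 1037 CPM after injury and 502 CPM without it (ratio 2.06, 1.59 to 2.72). Of the 7 annexins, 4 were at least 2-fold higher there (Anxa1, Anxa2, Anxa4 and Anxa5), beside 18.0% of all genes that reached 10 CPM. Of these 4, Anxa1 reached 10 CPM through the injured cells alone, at 56.6 against 8.51 CPM. The interval lay above 1 for Anxa1 with 107 UMIs against 1 (ratio 6.65, 1.17 to 265), Anxa2 with 180 against 59.6 CPM (ratio 3.03, 1.45 to 7.58), Anxa5 with 328 against 136 CPM (ratio 2.41, 1.47 to 4.24) and Anxa3 with 315 against 187 CPM (ratio 1.68, 1.10 to 2.71). All 7 Anxa2 UMIs of the uninjured class came from 1 of its 32 cells.

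In fibroblast-like cells Anxa1 had 113 against 35.9 CPM (ratio 3.16, 1.73 to 6.34) and Anxa2 had 602 against 386 CPM (ratio 1.56, 1.28 to 1.91), and the intervals of the other 5 included 1. Of the 7 annexins, 1 was at least 2-fold higher there, beside 14.5% of all genes that reached 10 CPM. The upper limit on gene UMIs left out 38 cells that a clustering with no filter on cells named fibroblast-like. These had more of both, with 479 CPM of Anxa1 and 835 CPM of Anxa2. In endothelial-like cells Anxa2 had 550 against 368 CPM (ratio 1.50, 1.08 to 2.13) and was the only member with an interval above 1. There 1 of the 7, Anxa1 with 29 UMIs against 1, was at least 2-fold higher, beside 14.7% of all genes that reached 10 CPM. It reached this level through the injured cells alone, at 38.9 against 9.43 CPM. In ependymal-like cells no interval lay above or below 1, and Anxa2 and Anxa5 had ratios of 1.09 (0.843 to 1.43) and 1.00 (0.793 to 1.28). There 3 of the 7 were at least 2-fold higher, beside 12.2% of all genes that reached 10 CPM. Of these 3, Anxa3, at 7.08 CPM with injury, did not reach 10 CPM. Anxa1 reached it through the injured cells alone, at 10.0 CPM. Anxa1 and Anxa3 had no UMI and Anxa7 had 3 UMIs in the 31 uninjured cells. The difference between classes in these ratios was not tested. Anxa3 in endothelial-like cells was at 473 CPM and 472 CPM, a ratio of 1.00 (0.743 to 1.38).

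RNA of other cells in the droplets of astrocyte-like cells can be set beside these values, since the markers of other classes were counted in the same cells. In injured astrocyte-like cells the 10 microglia markers, 1 of them at 0, summed to 174 CPM, 0.614% of their level in microglia-like cells, and to 101 CPM, 0.486%, in uninjured ones. The 8 endothelial markers, 1 at 0 in injured and 2 in uninjured cells, stood at 0.185% and 0.0233% of their level in endothelial-like cells. The 8 fibroblast markers, 3 at 0 in injured and none in uninjured cells, stood at 0.734% and 0.286%. The 8 ependymal markers, 1 at 0 in injured and none in uninjured cells, stood at 4.19% and 0.394%, and the 6 neutrophil markers, 3 and 5 of them at 0, summed to 1.85 and 0.358 CPM. The 8 OPC markers stood at 9.90% and 8.60% of their own level. Summed levels, injured first, were 331 and 296 CPM for oligodendrocyte, 74.4 and 94.6 CPM for mural, 228 and 198 CPM for neuron, 95.2 and 88.2 CPM for Schwann cell and 1.39 and 0.0896 CPM for lymphocyte markers. The 4 erythroid markers summed to 7.86 CPM in injured and 445 CPM in uninjured astrocyte-like cells, and their part in the annexin values was not tested.

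On the same scale Anxa2 in injured astrocyte-like cells stood at 81.6% of its level in microglia-like, 33.4% of that in ependymal-like, 26.7% of that in endothelial-like and 24.4% of that in fibroblast-like cells. Anxa3 stood at 21.0% of its microglia-like and 14.0% of its endothelial-like level. Each of these shares is above that of the markers of the same class. Anxa1, with 1 UMI, stood at 0.408% of its fibroblast-like and 0.817% of its microglia-like level. As ratios these were 0.00408 (0.000102 to 0.0233) and 0.00817 (0.000205 to 0.0465). They cannot be placed above or below the 0.734% and 0.614% of the markers of these classes. The part of RNA from other cells in any of these annexin values was not tested.

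**Figure D4:**
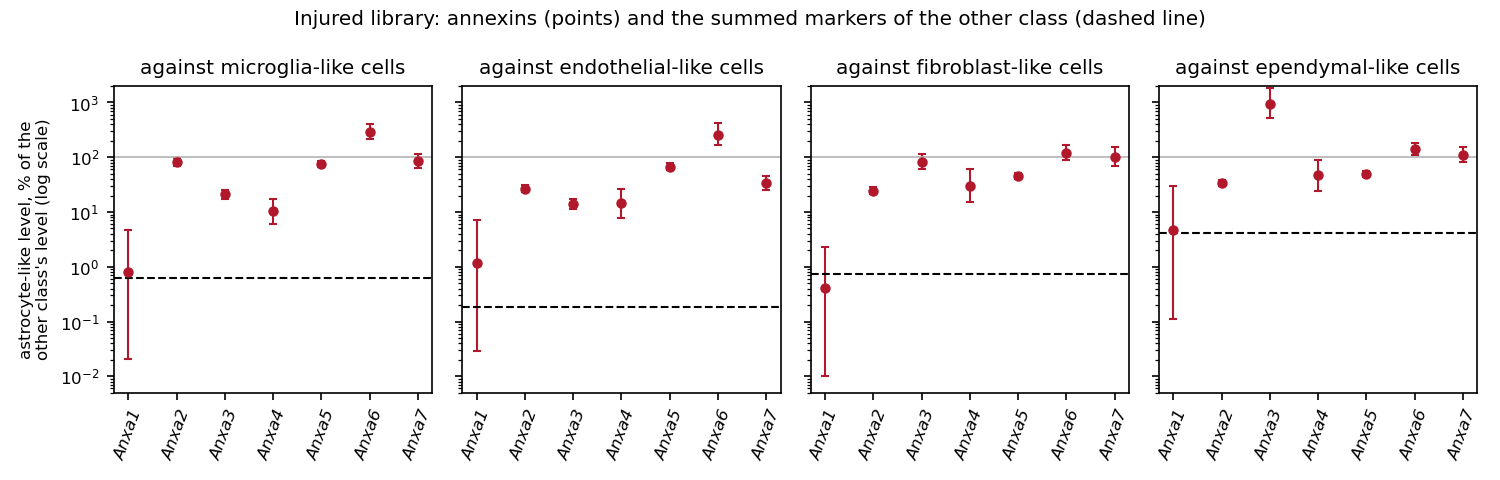
Level of each annexin in injured astrocyte-like cells as a percent of its level in 4 other classes (log scale, points with exact 95% intervals), with the summed markers of the other class on the same scale as a dashed line and equality as a grey line. Anxa1, on 1 UMI, has wide intervals that cross the dashed line in each panel, while Anxa2, at 24.4% to 81.6%, lies above it in each.

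Partners of annexins were also higher in injured astrocyte-like cells. S100a10 stood at 798 CPM against 38.4 CPM without injury (ratio 20.8, 18.7 to 23.1), and S100a11, the partner of Anxa1, had 402 CPM and 2.33 CPM (ratio 172, 117 to 266). Anxa1 itself had 1 UMI in these injured cells. S100a10 is among the 10 leading genes of cluster 3 and was not kept out of the clustering as the annexins were. Of 12 genes for annexin partners and receptors, 8 met 10 CPM. Of these 8, 7 were at least 2-fold higher and none lower, beside 15.2% and 8.01% of all genes that met 10 CPM. Of these 7, S100a11, S100a4, Ahnak, Plat and Plaur met 10 CPM through the injured cells alone and were under 5 CPM without injury, so passing the filter already fixed their 2-fold difference and the count is no support for the list. By log2 ratio, after S100a6 (6.99) and S100a11 (6.92) came Ahnak (5.59), a giant scaffold known to bind the Anxa2 and S100a10 complex, with 104 against 1.16 CPM. Lowest were Plgrkt (0.04), a plasminogen receptor, S100a4 (3.33) and Plaur (3.72), the urokinase receptor, with Plat, the tissue plasminogen activator, at 3.99. The formyl peptide receptor genes Fpr1 and Fpr2 had no UMI in astrocyte-like cells of either condition and 7 and 9 UMIs in injured microglia-like cells.

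Of 20 other genes for plasma membrane repair, 16 met 10 CPM. Of these 16, 9 were at least 2-fold higher and 1 lower, beside the same shares of all genes that met 10 CPM. Cav1, Dysf, Cavin1 and Ehd2 were under 5 CPM without injury and met 10 CPM through the injured cells alone, so the filter fixed their 2-fold difference too. Highest were Cav1 (caveolin 1), with 33 UMIs in injured and none in uninjured astrocyte-like cells, at least 56.8-fold higher on a floor of 3 counts over the uninjured class, Dysf (dysferlin), with 20.8 against 0.537 CPM (ratio 38.7, 16.5 to 111), and Cavin1 (2.61). Lowest were Syt7, a calcium sensor of lysosome exocytosis, with 11.6 against 25.4 CPM (ratio 0.456, 0.290 to 0.687), Vps4b (0.05) and Chmp3 (0.16), both of the ESCRT membrane scission machinery. Of the 5 other annexin genes, Anxa11 had 19 and 56 UMIs, or 8.78 and 5.02 CPM (ratio 1.75, 0.982 to 2.99), Anxa9 had 4 and 4, Anxa13 had 0 and 1, and Anxa8 and Anxa10 had none. None of these 5 met 10 CPM in astrocyte-like cells.

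Over the 11 sums of a class in a condition with at least 20 cells, Pearson's r of log2(CPM + 10) describes which genes had the most similar profiles among the 8732 genes that reached 50 CPM in some sum. The sums of 1 condition share a library, and the classes differ in depth. Nearest to Anxa2 were Ifitm3 (0.951), Ahnak (0.925) and Vim (0.916). Nearest to Anxa3 were Bst2 (0.974), Adipor1 (0.943) and Parp14 (0.938), and nearest to Anxa4 were Vamp8 (0.952), Ctsh (0.950) and Tgfbr2 (0.926). Anxa1 had Cmtm3 (0.911) and Resf1 (0.892), and Anxa5 had Agtrap (0.910), Ech1 (0.843) and Ifitm3 (0.841). Anxa6 had 1110065P20Rik (0.929), Naaladl2 (0.919) and Snap47 (0.889), and Anxa7 had Mapk3 (0.927), Gbp3 (0.925) and Slc31a1 (0.916). Among the annexins themselves, Anxa3 and Anxa7 (0.908), Anxa3 and Anxa4 (0.882) and Anxa4 and Anxa7 (0.836) were the most alike pairs, followed by Anxa2 and Anxa5 (0.769). Anxa6 had an r of 0.138 with Anxa2 and below 0 with the other 5.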

How the data were processed

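The sources describe 3′ single-cell RNA libraries of sorted cells with enriched enhancer barcodes. Raw UMI counts, not normalised, were deposited by the authors in 1 matrix for each condition, over 32287 gene features (2 of them added sequences) and 23 enhancer features. Cell Ranger 7.1.0 produced these counts per the file headers, while the submitters' processing notes name version 8.0.1 and mm10. Every per-sample column was mapped to a library (0 unused).

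The study's limits were applied, keeping cells above 500 and below 50000 gene UMIs. For clustering, each cell was scaled to 10000 UMIs and log transformed. Annexin genes, tdTomato-WPRE, EGFP and enhancer features were left out of the 2000 variable genes, and Leiden clusters were found at resolution 0.5 on 15 principal components with 15 neighbours (scanpy 1.11.5, igraph 0.11.9, scipy 1.17.1, Python 3.11.15). A cluster took the name of 1 of 13 marker lists by the highest mean score (above 0.2) if at least 3 markers were detected in 10% or more of its cells and no other list had more markers among its 10 leading genes. A cluster far shallower than its libraries also needed a marker of its own there. Leading genes needed a UMI in at least 10% of the cells of the cluster, a rule set after the clusters were seen. The fibroblast-like cluster also had the mural gene Vtn among its leading genes. In this class the 8 mural markers, none at 0, summed to 2499 CPM with injury and 1841 CPM without it. The part of mural cells in the fibroblast-like annexin levels was not tested. No doublets were removed.

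CPM of summed UMIs, exact intervals (95%) and ratios were computed as described, for classes with at least 20 cells in a condition. With 1 library per condition nothing was tested between conditions, and replicates could not be compared. Where a group had no UMIs, 3 counts over the group set the limit. The ratio and its interval were tested on simulated data. A cell with Xist but no Y-linked UMI was scored female, and the converse male. Gene positions came from GENCODE M21 (GRCm38) by identifier.

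The genes named were the 7 annexins, the other 5 annexin genes, the S100a10 and S100a11 partners and, of the 2 lists, the 3 highest and 3 lowest log2 ratios at 10 CPM or more, besides the 3 genes most like each annexin, of which 1 is not reported here. Plat, Ehd2, Fpr1 and Fpr2 were named after their values were seen. The members and lists were chosen with earlier results of these data known. Alternatives were the cell filter, clustering, cell choice, pseudocount, scaling, sex, doublet score, richest cells and low-level filter.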

Additional observations from a re-analysis of the deposited data

How the results depend on the processing

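The summed log2 ratio of the 7 annexins in astrocyte-like cells was 1.50 and stayed between 1.25 and 1.59 over 13 alternatives, of which leaving out the shallowest astrocyte-like cluster was chosen after seeing the data. It was 1.40 with no filter on cells, 1.31 with the unnamed clusters included and 1.25 in cells scored male, and the cause was not tested. Between 3 (pseudocount of 10 CPM) and 5 (cells with an Aldh1l1 UMI) annexins were at least 2-fold higher. Anxa2 ranged from 3.62 to 5.44, Anxa3 from 2.92 to 6.06, Anxa7 from 1.16 to 1.59, Anxa4 from 0.58 to 1.62, Anxa5 from 0.57 to 0.98 and Anxa6 from 0.49 to 1.05, so their direction held in each of these alternatives. The lowest values of Anxa2, Anxa3, Anxa4 and Anxa7 came with the pseudocount of 10 CPM, which shrinks ratios of low genes by construction. Anxa1 ranged from 0 to 1.74 on 1 UMI or a few. With at least 2 UMIs the share of cells with Anxa2 was 15.3% with injury and 0.0974% without, and thinned to 1000 gene UMIs it was 9.72% and 0.166%, as fewer UMIs give by construction. At least 2-fold higher were 781 of 4228 genes at 50 CPM or more (18.5%) and 2539 of 32287 with no filter on low genes (7.86%), against 1527 of 10050. Of the ratios of single annexins in astrocyte-like cells under these alternatives, 71 stayed within their counting interval and 20 left it. Leiden resolution 1.0 gave identical ratios in the 4 other classes and so says nothing of their stability, and in cells scored male the ependymal-like ratios of Anxa1 and Anxa7 left their intervals. No paired analysis was possible because only 1 expression library stands for a condition. Depth limits Anxa1 and Anxa4 in astrocyte-like cells and each annexin in uninjured classes of 97 cells or fewer.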

Other observations

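The 40 injured cells left out for reaching 50000 gene UMIs held more Anxa1 than all kept injured cells together, with 1527 UMIs against 248. With no filter on cells, 38 of them fell into the fibroblast-like cluster, 1 into the ependymal-like and 1 into the microglia-like cluster, and Col1a1, a fibrillar collagen gene, stood at 1575 CPM in the 40 cells against 36.8 CPM of Gfap. Mki67, a gene of dividing cells, stood at 112 CPM. The 38 fibroblast-like cells had 479 CPM of Anxa1 and 835 CPM of Anxa2, against 113 and 602 CPM in the 59 injured fibroblast-like cells that were kept. The 59 cells were named in the main clustering and the 38 in that with no filter, whose fibroblast-like cluster held 83 injured cells. The class may thus differ between the clusterings, and the part of this in these values was not tested. In the 38 cells Anxa5 was at 601 CPM and Anxa3 at 137 CPM, against 533 and 80.1 CPM in the 59. The fibroblast-like levels of the report leave these cells out, and doublets were not removed from either group.

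Anxa11, which was not among the 7 annexins described, was highest in ependymal-like cells, with 102 CPM in injured (87.4 to 118) and 189 CPM in uninjured ones (128 to 270). It had 30.9 CPM in injured endothelial-like and 27.5 CPM in injured microglia-like cells.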
